A study of Mus musculus with 6 samples.

Results

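The mitochondrially encoded genes are the genes of the mitochondrial chromosome, recognised by symbols that start with mt-. The annotation holds 37 of them, and all 37 were listed among the 42450 genes of the count table. They comprise 13 mRNA genes, 2 rRNA genes and 22 tRNA genes. The 6 total RNA libraries came from mouse embryonic stem cells, 3 from the parental line E14tg2a.4 (WT) and 3 from its Srrm2 heterozygous derivative (Srrm2+/-). Both lines were grown on gelatin in medium with LIF and moved to serum-free ESGRO medium with LIF before collection. By the study's methods, WT and Srrm2+/- cells for these libraries were plated at the same density and collected after the same time. Srrm2+/- cells are a single gene-trap line, CG0630, in which a cassette in exon 1 truncates 1 allele of Srrm2, the gene of a nuclear speckle splicing factor. Replicates came from batches frozen at different passages, and the WT batches were at later passages than the Srrm2+/- batches, so genotype, clone and passage cannot be told apart.

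The mitochondrial genome is a small circle present in many copies per cell. It is transcribed by its own polymerase, POLRMT, into long precursors from both strands, and tRNAs that lie between the longer genes mark where the precursor is cut. The heavy-strand transcript carries both rRNAs, most tRNAs and all mRNAs but one, and the light-strand transcript carries mt-Nd6 and the remaining tRNAs. The mRNAs encode core subunits of respiratory complexes I, III and IV and of the ATP synthase (complex V), and the rRNAs and tRNAs serve the translation of these mRNAs inside the organelle.

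Library totals ranged from 54151433 to 69933421 estimated counts. Srrm2, which checks the labels, was at 95.7 ± 3.94 CPM in WT against 59.4 ± 3.02 CPM in Srrm2+/- (± SD over n = 3 libraries per group; CPM, counts brought to a common library size, scaled by TMM, the trimmed mean of M-values), a log2 fold change of -0.69 (edgeR adjusted p 2.38e-05, SE 0.05). All 8 embryonic stem cell markers examined were at 43.7 CPM or more in every library, and their sum was 5059 to 5242 CPM in WT against 4427 to 4538 CPM in Srrm2+/-. Nanog (log2 fold change -0.72), Esrrb (-0.38), Zfp42 (-0.31), Sox2 (-0.30) and Dppa5a (-0.18) were called lower and Utf1 (0.52) higher. Pou5f1 (-0.0399) and Tdgf1 (-0.0732) were not called. The 5 fibroblast markers summed to 1.53 to 1.86 CPM in WT against 6.01 to 9.96 CPM in Srrm2+/-. Of these, Col1a2 (3.89), Postn (2.835), Col3a1 (2.28) and Col1a1 (1.13) were called higher, and Pdgfrb (0.23) was not called. The 5 primitive endoderm markers summed to 1.78 to 2.16 CPM in WT and 2.22 to 3.21 CPM in Srrm2+/-. Among them Dab2 was called higher (1.34, edgeR adjusted p 0.0112). Gata6 (0.95), Gata4 (-0.00377) and Pdgfra (-0.39) were not called, and Sox17 was not tested. Of the 5 trophoblast markers, which summed to 52.2 to 52.9 CPM in WT against 32.2 to 35.3 CPM in Srrm2+/-, Tfap2c gave most of the sum and was called lower (-0.71). Eomes was called higher (0.79, edgeR adjusted p 0.0387), and Cdx2 was at 0 in every WT library and at 0.0723 to 0.276 CPM in Srrm2+/-. The part of these markers in the results on mitochondrial genes was not tested.

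To ask whether the load of mitochondrial RNA differed between the lines, the counts of all 37 genes were summed per library. They made up 2.59, 2.70 and 2.85% of all counts in the WT libraries and 2.79, 2.60 and 2.64% in the Srrm2+/- libraries. The groups overlapped, with means of 2.71 ± 0.132% and 2.68 ± 0.104% (± SD over n = 3 libraries per group; two-sided exact permutation p = 0.7). The direction of this small difference turned without WT replicate 3 and without Srrm2+/- replicate 2. Most of the sum was mRNA, at 2.44 ± 0.0892% of all counts in WT and 2.36 ± 0.114% in Srrm2+/-. The rRNA share was 0.264 ± 0.0584% and 0.308 ± 0.00978%, and both pairs of groups overlapped (exact permutation p = 0.4 and 0.2). The tRNA share was far smaller and was lower in Srrm2+/-, at 0.00549 ± 0.000145% in WT against 0.00398 ± 0.000467%. The tRNA groups did not overlap (exact permutation p = 0.1, the smallest that 3 against 3 libraries can give). These sums leave out counts placed on copies of mitochondrial sequence in the nuclear genome, described further on. With those counts added, the mitochondrial genes made up 3.675 ± 0.155% of all counts in WT and 3.652 ± 0.156% in Srrm2+/-. The mRNA share was then 3.406 ± 0.113% in WT and 3.34 ± 0.165% in Srrm2+/- (± SD over n = 3 libraries per group). For both shares the groups still overlapped. In bulk RNA, fewer cells with a transcript and less of it per cell cannot be told apart.

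Of the 37 genes, 34 had enough counts to be tested and 3 tRNA genes did not. In the edgeR fit across all 18905 genes tested, 5 of the 34 were called at an adjusted p under 0.05. In that fit 13.6% of all genes were called higher in Srrm2+/- and 11.7% lower. Among the mitochondrial genes 1 was called higher (mt-Co2) and 4 lower (mt-Nd6, mt-Tq, mt-Tn and mt-Ts1). The share called was thus below the background for rises and near it for falls. All 4 genes called lower belong to the light-strand transcript, whose tRNAs held 81.8 to 84.7% of the tRNA counts in each library. The median log2 fold change was close between the tested light-strand tRNAs (-0.62) and heavy-strand tRNAs (-0.63). The groups did not overlap for 3 of the 13 mRNAs, against 41.4% of all genes tested. The median log2 fold change was -0.0203 for the 13 mRNAs, 0.15 for the 2 rRNAs and -0.63 for the 19 tested tRNAs, beside -0.00254 over all genes tested. No alternative scaling moved the median of all genes by as much as 0.1.

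**Figure D1:**
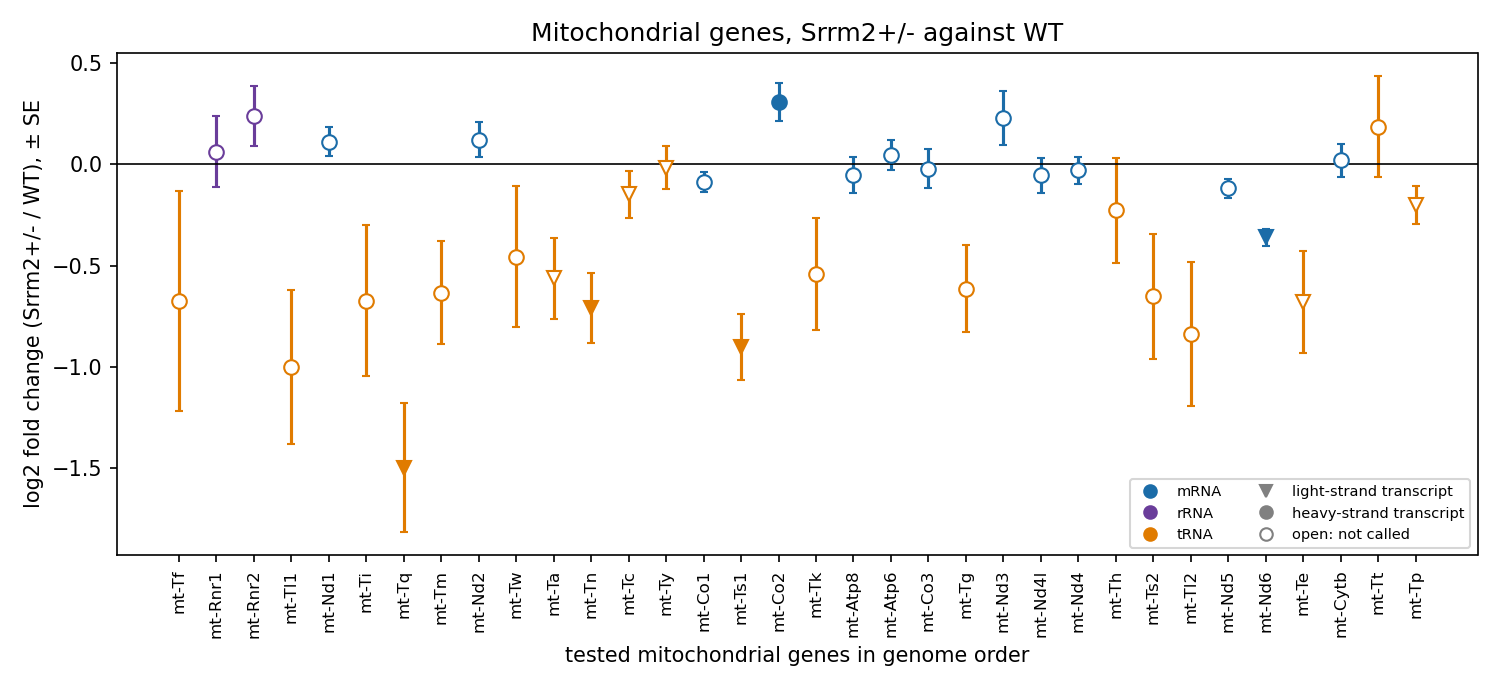
Log2 fold change (Srrm2+/- against WT, vertical axis) with its standard error for the 34 tested mitochondrial genes in genome order (horizontal axis); triangles mark the light-strand transcript and filled symbols the 5 called genes. Apart from mt-Nd6, mt-Co2 and the uncalled mt-Nd3 (0.23), the mRNAs sit close to 0. Of the 19 tRNAs, 18 lie below 0.

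mt-Nd6 (ENSMUSG00000064368, chromosome M, 13552 to 14070, minus strand of GRCm38) encodes a membrane subunit of complex I and is the sole mRNA of the light-strand transcript. Its level was 149, 158 and 151 CPM in the WT libraries and 120, 114 and 122 CPM in the Srrm2+/- libraries. Every Srrm2+/- library was below every WT library. The mean fell from 152 ± 5.08 to 119 ± 3.99 CPM (± SD over n = 3 libraries per group), to 0.779 of the WT level. The log2 fold change was -0.36 (edgeR adjusted p 0.000363, SE 0.04). It stayed between -0.38 and -0.33 and was called under all 16 alternatives.

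The ratio of mt-Nd6 to the 12 heavy-strand mRNAs is a value that no scaling between libraries can change. On the log2 scale this ratio was -7.28, -7.25 and -7.41 in WT and -7.71, -7.64 and -7.55 in Srrm2+/-. The groups did not overlap and differed by -0.32 (SDs 0.0845 and 0.0808, n = 3 each, exact permutation p = 0.1). Leaving out 1 library kept the difference between -0.36 and -0.28. With the counts of the nuclear copies described further on added to the heavy-strand mRNAs, it was -0.34. The kit preserves strand, but whether strand was used in counting was not given in the sources used here. Without strand, reads of any heavy-strand RNA that runs antisense to mt-Nd6 would count toward it.

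**Figure D2:**
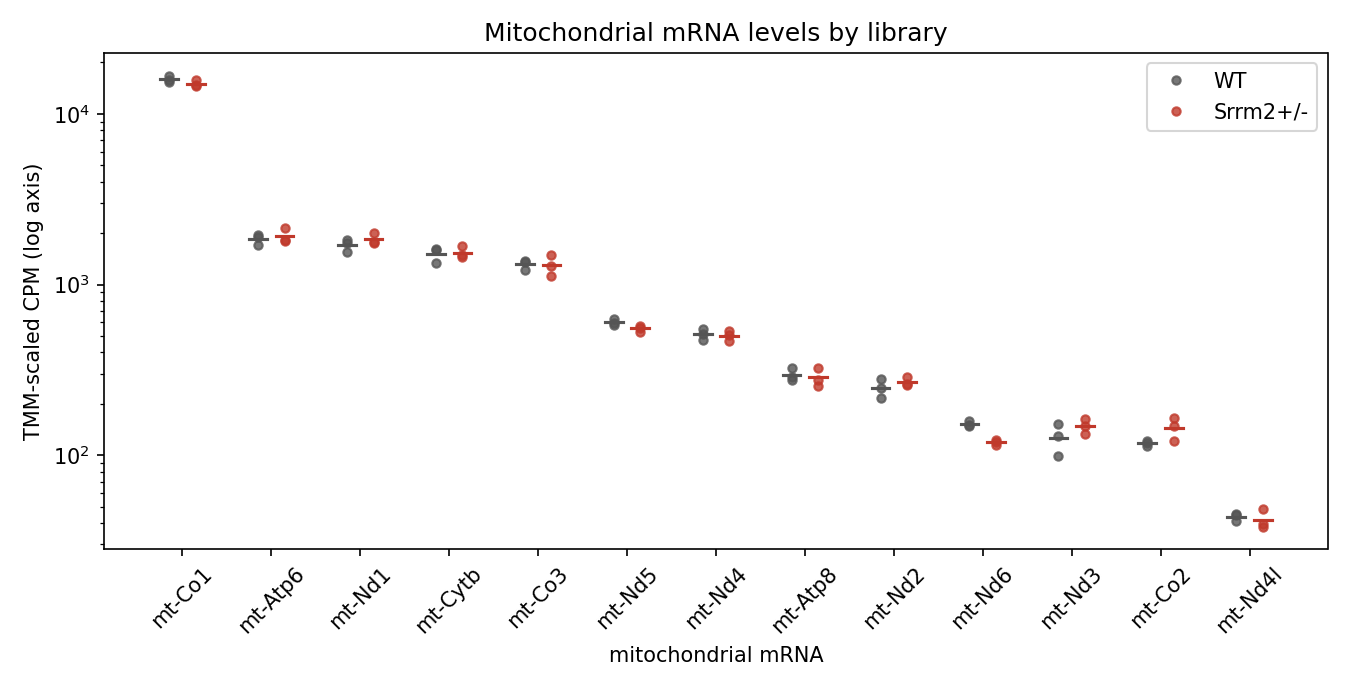
Level of each mitochondrial mRNA (TMM-scaled CPM, logarithmic vertical axis) in the 3 WT and 3 Srrm2+/- libraries, with 1 point per library and a bar at the group mean. The groups are apart for mt-Nd6 (114 to 122 against 149 to 158 CPM), for mt-Nd5 and, in the opposite direction, for mt-Co2, and overlap for the other mRNAs. Of all genes tested, 41.4% had groups apart.

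The other 6 mRNAs of complex I, the NADH dehydrogenase that feeds electrons into the chain, lay between -0.12 and 0.23. mt-Nd5 was at 581, 594 and 625 CPM in WT against 573, 556 and 529 CPM in Srrm2+/-. Its groups did not overlap, by a narrow margin, but its log2 fold change of -0.12 (edgeR adjusted p 0.0954, SE 0.05) did not pass the threshold, which it passed with DESeq2 alone (adjusted p 0.0436). The groups overlapped for mt-Nd1 (0.11, SE 0.07), mt-Nd2 (0.12, SE 0.09), mt-Nd3 (0.23, SE 0.13), mt-Nd4 (-0.0288, SE 0.07) and mt-Nd4l (-0.0540, SE 0.09). mt-Cytb, the cytochrome b of complex III, was at 1518 ± 156 CPM in WT against 1539 ± 122 CPM in Srrm2+/- (± SD over n = 3 libraries per group; log2 fold change 0.0198, SE 0.08). The 2 mRNAs of the ATP synthase, mt-Atp6 (0.0460, SE 0.07) and mt-Atp8 (-0.0520, SE 0.09), also overlapped between the groups. As a share of the mRNA counts of a library, complex I was higher in Srrm2+/- by 0.0827 on the log2 scale, complex V was higher by 0.0759 and complex IV differed by -0.0325, each with no overlap (exact permutation p = 0.1). With nuclear copies added these became 0.0704, 0.0571 and -0.0173, and the groups then overlapped for complex V. Complex III differed by 0.0678 with overlap (exact permutation p = 0.4). The shares of the complexes are parts of the same sum, most of it complex IV, so they are not separate differences.

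Complex IV is cytochrome c oxidase, and its 3 mitochondrial subunits form the catalytic core. mt-Co1 was by far the most abundant, at 15920 ± 768 CPM in WT against 15000 ± 630 CPM in Srrm2+/- (± SD over n = 3 libraries per group). Its log2 fold change of -0.0862 (edgeR adjusted p 0.236, SE 0.05) did not pass the threshold. mt-Co3 was at 1318 ± 82.0 and 1300 ± 191 CPM (log2 fold change -0.0203, SE 0.10), and its sign turned when nuclear copies were added (0.0420). mt-Co2 was listed at 121, 113 and 118 CPM in WT against 122, 148 and 166 CPM in Srrm2+/-. Its log2 fold change of 0.31 (edgeR adjusted p 0.0447, SE 0.10) is the sole rise called among the mitochondrial genes. The highest WT library and the lowest Srrm2+/- library differed by less than 1 CPM.

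The level listed for mt-Co2 also depends on how reads were divided with copies of mitochondrial sequence in the nuclear genome. Pseudo-alignment matches reads to transcripts by short words (here 31 bases), and a read whose words occur in several transcripts is shared out between them by estimation. A stretch of chromosome 1 carries unprocessed pseudogenes of 7 mitochondrial mRNAs, which are Gm29216 (mt-Co1), Gm28661 (mt-Co2), Gm10925 (mt-Atp6), Gm28437 (mt-Co3), Gm28438 (mt-Nd3), Gm10222 (mt-Nd4l) and Gm28439 (mt-Nd4). Of the words of mt-Co2, 100% occur in annotated nuclear transcripts, as do 99.9% for mt-Co3, 99.5% for mt-Atp6, 98.9% for mt-Nd4l, 98.1% for mt-Nd3, 63.9% for mt-Co1 and 62.8% for mt-Nd4. For mt-Nd1, both rRNAs and the tRNAs other than mt-Ty the share was at most 2.71%, and for mt-Nd6 it was 7.36%.

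Gm28661 (chromosome 1, 24614885 to 24615565, minus strand of GRCm38) is 681 bases long and matches the first 681 of the 684 bases of mt-Co2 with 0 mismatches. The ends of both annotated transcripts are shown because they hold the only bases that set them apart, given in capitals.
mt-Co2: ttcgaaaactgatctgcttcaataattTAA
Gm28661: ttcgaaaactgatctgcttcaataatt

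The table gave Gm28661 3590 ± 233 CPM in WT against 3667 ± 261 CPM in Srrm2+/- (± SD over n = 3 libraries per group), and mt-Co2 117 ± 4.42 and 145 ± 22.1 CPM. Between 2.97 and 4.49% of the summed count was on mt-Co2. With the counts of Gm28661 and of Gm13341, a further copy on chromosome 2, added, mt-Co2 was at 3477, 3708 and 3939 CPM in WT against 4091, 3661 and 3686 CPM in Srrm2+/-. The groups then overlapped, and the log2 fold change was 0.0402 (edgeR adjusted p 0.683, SE 0.06). As deposited, the fold change of mt-Co2 changed little with limma voom, the replicate block or scaling on nuclear protein coding genes (0.30 each), but the call was lost (adjusted p 0.0573, 0.0629 and 0.0522). The call was also lost without any 1 library other than Srrm2+/- replicate 1, with fold changes of 0.20 (without Srrm2+/- replicate 3) to 0.33 and adjusted p of 0.0743 to 0.133.

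The division differed from gene to gene. The copies of mt-Co2, mt-Co3, mt-Atp6, mt-Nd4l and mt-Nd3 on chromosome 1 span nearly the whole gene with 0 or 1 mismatches, while Gm28439 covers 876 of the 1378 bases of mt-Nd4 and Gm29216 492 of the 1545 bases of mt-Co1 with 6 mismatches. For mt-Co3, 23.8% of the summed count in WT was on the mitochondrial gene, and for mt-Nd3 32.9%. For mt-Co1 it was 91.0%, and for mt-Atp6, mt-Nd4l and mt-Nd4 it was 100% within rounding. Gm10925 matches mt-Atp6 with 0 mismatches over its 678 bases, as Gm28661 matches mt-Co2, yet held a mean of 1.17 counts per library. With copies added, the log2 fold changes were 0.16 for mt-Nd3 (edgeR adjusted p 0.125, SE 0.07), 0.0420 for mt-Co3 (SE 0.05) and -0.0906 for mt-Co1 (SE 0.05), and none passed the threshold. From these counts, RNA of the organelle and RNA of the nuclear copies cannot be told apart.

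**Figure D3:**
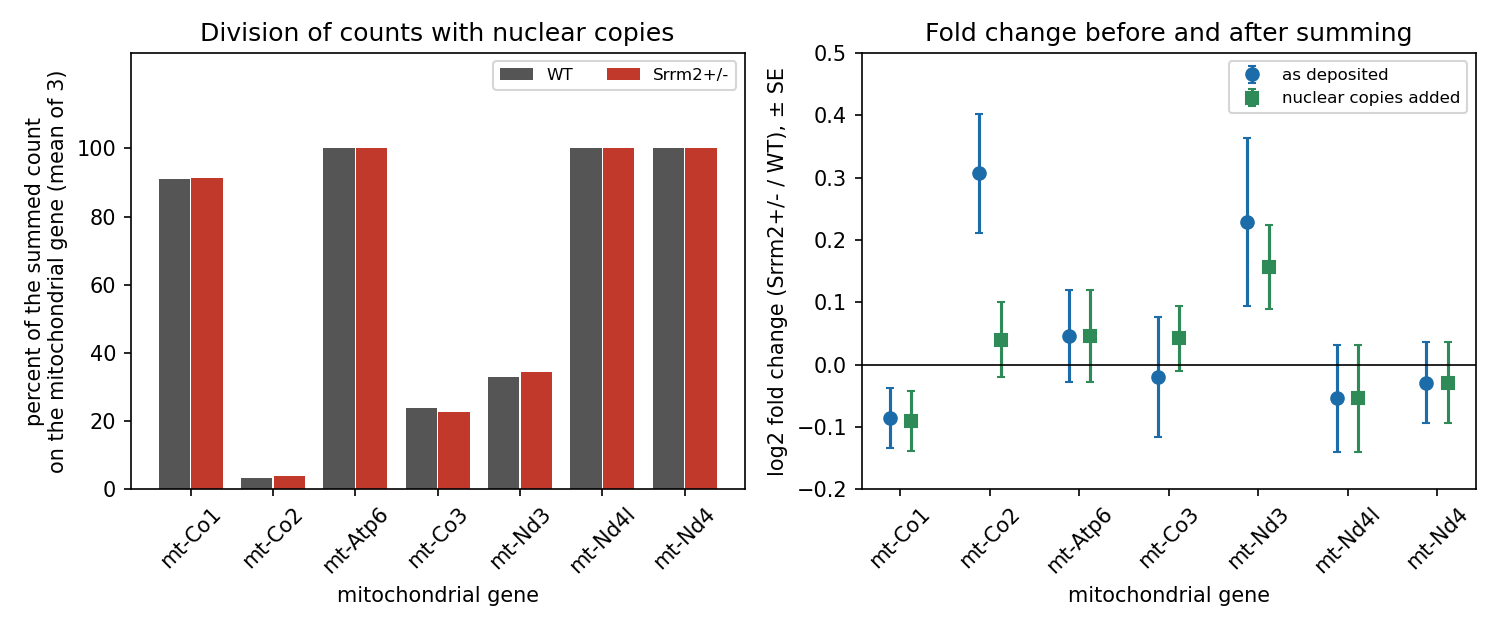
Left, percent of the summed count of a mitochondrial gene and its nuclear copies that the table placed on the mitochondrial gene (bars, mean of 3 libraries per group); right, log2 fold change (Srrm2+/- against WT) with its standard error as deposited and with the copies added. mt-Co2 held 3.17% of its summed count in WT, and its fold change moved from 0.31 to 0.0402.

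Levels of different genes were compared per kilobase of annotated length, with nuclear copies added. The order in WT ran from mt-Co1 at 11330 ± 510 CPM per kilobase through mt-Co3 (7061 ± 193), mt-Co2 (5421 ± 338), mt-Atp6 (2726 ± 188) and mt-Nd1 (1784 ± 145; ± SD over n = 3 libraries per group). Each of these first 4 was above the next in all 6 libraries. mt-Nd1, mt-Rnr2, mt-Atp8 and mt-Cytb, at 1327 to 1784 CPM per kilobase, were neighbours whose gaps lay within the spread of the WT libraries. mt-Nd3 followed at 1111 ± 114, then mt-Nd4 (371 ± 26.5), mt-Nd5 (329 ± 12.4) and mt-Nd6 (294 ± 9.79). mt-Rnr1 (260 ± 65.9) came next and did not differ beyond the spread in WT from mt-Nd6 above it or from mt-Nd2 (238 ± 30.9) below it, while mt-Nd6 was above mt-Nd2 in all 3 WT libraries. mt-Nd4l was last at 147 ± 7.51. In Srrm2+/- the first 11 kept their ranks. mt-Nd6 went from rank 12 to rank 14, at 229 ± 7.64 CPM per kilobase, below mt-Rnr1 and mt-Nd2.

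In the cell, mt-Atp8 and mt-Atp6 share a single mRNA, as do mt-Nd4l and mt-Nd4. Per kilobase, mt-Atp8 stood at 0.535 ± 0.0393 of mt-Atp6 in WT and 0.498 ± 0.023 in Srrm2+/-, and mt-Nd4l at 0.397 ± 0.0153 and 0.389 ± 0.034 of mt-Nd4 (± SD over n = 3 libraries per group). The first gene of each pair is the shorter, at 204 and 297 bases, and no correction for fragment length was made here. Both ratios overlapped between the groups.

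The 2 rRNAs, mt-Rnr1 of the small and mt-Rnr2 of the large mitochondrial ribosomal subunit, were compared next. mt-Rnr2 was at 1733, 2682 and 2781 CPM in WT against 2767, 2866 and 2851 CPM in Srrm2+/-. WT replicate 1 stood below the other 5 libraries, and without it the log2 fold change of mt-Rnr2 fell from 0.24 (edgeR adjusted p 0.29, SE 0.15) to 0.0509. mt-Rnr1 was at 249 ± 62.9 CPM in WT against 259 ± 43.2 CPM in Srrm2+/- (± SD over n = 3 libraries per group; log2 fold change 0.0621, SE 0.17), and its sign turned without WT replicate 1 and without Srrm2+/- replicate 2. The ratio of mt-Rnr1 to mt-Rnr2 per kilobase was 0.172 ± 0.0212 in WT and 0.152 ± 0.0236 in Srrm2+/-, and the groups overlapped. Both rRNAs derive from the start of the heavy-strand transcript. Total RNA kits remove rRNA before sequencing, and how far mitochondrial rRNA was removed was not given in the sources used here, so these levels are of the RNA that remained.

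The tRNAs gave few counts, 2887 to 3281 per WT library and 2526 to 2754 per Srrm2+/- library, although the Srrm2+/- libraries were deeper. The 8 light-strand tRNAs held between 81.8 and 84.7% of these counts in every library. Reads on a gene of 59 to 75 bases can come from mature tRNA or from uncut precursor, and these libraries cannot tell which. As for mt-Nd6, reads of antisense heavy-strand RNA would count toward the light-strand tRNAs if strand was not used. That bears on the levels of the light-strand tRNAs, their share and their ratio to heavy-strand tRNAs. The log2 ratio of light-strand to heavy-strand tRNA counts stood at 2.31 ± 0.152 in WT against 2.39 ± 0.0697 in Srrm2+/- (± SD over n = 3 libraries per group; exact permutation p = 0.5), and the groups overlapped. Against the mRNAs of the same library, tRNA counts were lower in Srrm2+/- by -0.42 on the log2 scale (WT -8.80 ± 0.0894, Srrm2+/- -9.22 ± 0.189, ± SD over n = 3 libraries per group; exact permutation p = 0.1), with no overlap.

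The light-strand tRNAs, which held most of the tRNA counts, were looked at first. Of the 19 tested tRNAs, 3 were called lower, against 11.7% of all genes tested, and all 3 were from the light-strand transcript. Their sequences and those of mt-Tc and mt-Ty, which lie beside mt-Tn and are read in the same direction, are shown from 5′ to 3′ as DNA with the anticodon in capitals, taken from GENCODE release M21 on GRCm38.
mt-Tq: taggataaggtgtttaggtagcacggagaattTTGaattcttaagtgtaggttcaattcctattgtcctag
mt-Ts1: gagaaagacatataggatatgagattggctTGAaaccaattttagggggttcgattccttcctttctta
mt-Tn: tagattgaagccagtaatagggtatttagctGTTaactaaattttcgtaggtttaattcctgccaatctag
mt-Tc: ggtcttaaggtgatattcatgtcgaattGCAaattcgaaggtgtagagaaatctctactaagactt
mt-Ty: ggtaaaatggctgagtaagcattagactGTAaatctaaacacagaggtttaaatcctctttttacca

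mt-Tq, the glutamine tRNA (chromosome M, 3772 to 3842, minus strand), had 31, 42 and 25 counts in WT against 12, 14 and 15 counts in Srrm2+/-. Its level fell to 0.354 of WT, a log2 fold change of -1.50 (edgeR adjusted p 0.00843, SE 0.32), the largest change among the 34 tested genes, at some of the lowest counts. mt-Ts1, a serine tRNA (chromosome M, 6870 to 6938, minus strand), had 591, 553 and 425 counts in WT against 362, 272 and 365 counts in Srrm2+/-. It fell from 9.38 ± 1.37 to 5.03 ± 1.00 CPM (± SD over n = 3 libraries per group), a log2 fold change of -0.90 (edgeR adjusted p 0.00372, SE 0.16). Both were apart between the groups and were called under every alternative that tested them, 15 for mt-Tq and 16 for mt-Ts1. mt-Tn, the asparagine tRNA (chromosome M, 5089 to 5159, minus strand), had 497, 674 and 472 counts in WT against 406, 326 and 460 counts in Srrm2+/-. It fell from 9.81 ± 1.60 to 6.02 ± 1.37 CPM, a log2 fold change of -0.71 (edgeR adjusted p 0.0162, SE 0.17), and was called under 14 of 16 alternatives. The call was lost without WT replicate 2 (-0.56, adjusted p 0.0592) and without Srrm2+/- replicate 1 (-0.69, adjusted p 0.0549).

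The other 5 light-strand tRNAs were not called in this fit. mt-Ta, the alanine tRNA, was at -0.56 (edgeR adjusted p 0.0708, SE 0.20) and mt-Te, the glutamate tRNA that directly follows mt-Nd6 in genome order, was at -0.68 (edgeR adjusted p 0.0839, SE 0.25). The groups of mt-Ta did not overlap, and it was called with a filter of 1 CPM in every library of a group (adjusted p 0.0496) and without WT replicate 3 (0.0265). mt-Te was called by DESeq2 (adjusted p 0.0211) and without Srrm2+/- replicate 3 (0.0293). mt-Tp, the proline tRNA nearest to the control region, was at 5.55 ± 0.18 CPM in WT against 4.82 ± 0.202 CPM in Srrm2+/- (± SD over n = 3 libraries per group; log2 fold change -0.20, edgeR adjusted p 0.166, SE 0.10), with no overlap. The cysteine tRNA mt-Tc was at -0.15 (SE 0.11) and the tyrosine tRNA mt-Ty at -0.0157 (SE 0.10), both with overlapping groups.

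Within the cluster of light-strand tRNAs between mt-Nd2 and mt-Co1, the members thus differed in how far the groups were apart. Ratios of neighbours within a library need no scaling, and the pairs given here were chosen after their values were seen. mt-Tn had 1.77, 1.95 and 1.5 counts per count of mt-Ty in WT and 1.12, 0.813 and 1.32 in Srrm2+/-, and the groups did not overlap. The ratio of mt-Tn to mt-Tc was 1.11 ± 0.257 in WT and 0.739 ± 0.149 in Srrm2+/- (± SD over n = 3 libraries per group), with overlap. The ratio of mt-Ts1 to mt-Tp, a light-strand tRNA elsewhere on the circle, went from 1.69 ± 0.204 to 1.04 ± 0.183 with no overlap.

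**Figure D4:**
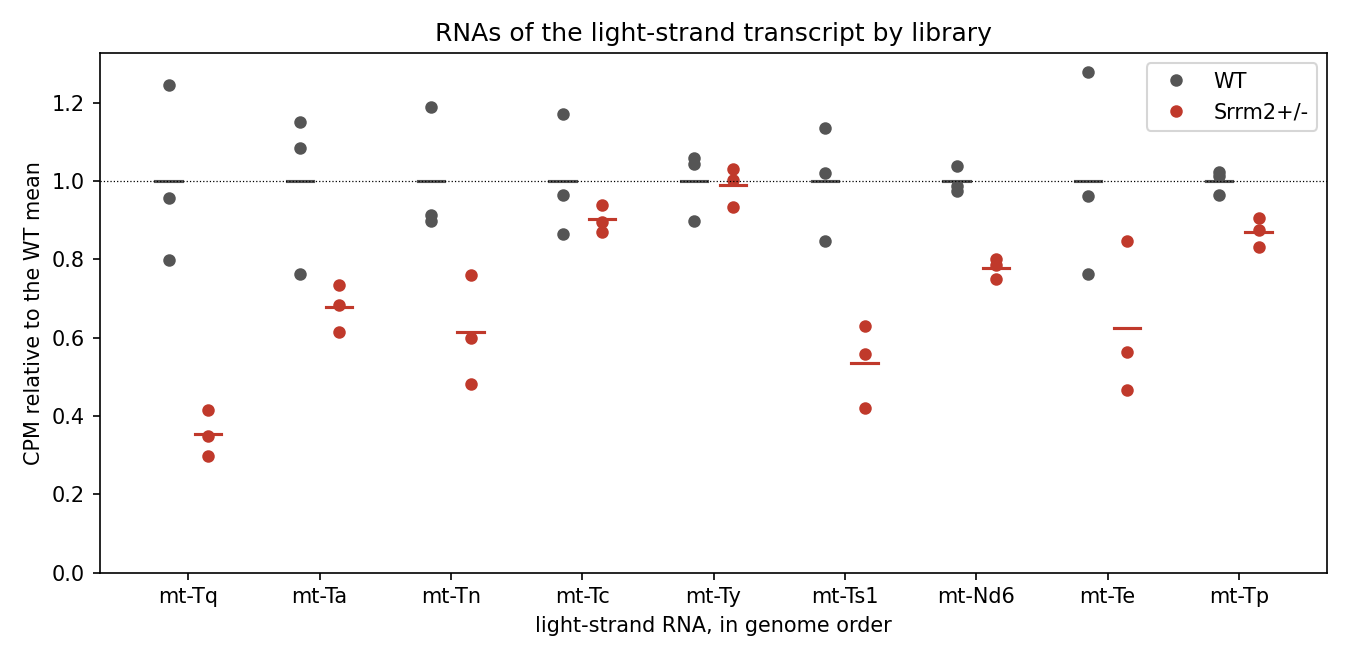
Level of each light-strand RNA relative to its WT mean (vertical axis, starting at 0) in genome order, with 1 point per library and bars at group means for 3 WT and 3 Srrm2+/- libraries. mt-Tq (mean 0.354 of WT by the fit) and mt-Ts1 (0.536) lie lowest, mt-Nd6 (0.779) has little spread, and mt-Ty lies around its WT mean.

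Of the 14 heavy-strand tRNAs, 11 were tested and 0 were called by edgeR, against 13.6% of all genes called higher and 11.7% lower. An unadjusted edgeR p between 0.0199 and 0.0429 was found for mt-Tg, mt-Tl1, mt-Tm and mt-Tl2. The median log2 fold change of the 11 was -0.63, close to that of the light-strand tRNAs (-0.62), and 10 of the 11 were negative. mt-Tl1, a leucine tRNA directly downstream of mt-Rnr2, had 58, 97 and 55 counts in WT against 64, 21 and 40 counts in Srrm2+/- (log2 fold change -0.998, edgeR adjusted p 0.0885, SE 0.38). Scaled for depth its groups did not overlap, and it was called by DESeq2 (adjusted p 0.0466) and without Srrm2+/- replicate 1 (-1.40, adjusted p 0.0434). The glycine tRNA mt-Tg was at -0.61 (edgeR adjusted p 0.0697, SE 0.22), the methionine tRNA mt-Tm at -0.63 (SE 0.25) and the second leucine tRNA mt-Tl2 at -0.84 (SE 0.35). mt-Ti, mt-Tf, mt-Ts2, mt-Tk, mt-Tw and mt-Th, the tRNAs for isoleucine, phenylalanine, serine, lysine, tryptophan and histidine, lay between -0.67 and -0.23 with standard errors of 0.26 to 0.54. The threonine tRNA mt-Tt was the exception at 0.19 (SE 0.25). The tRNAs that were not tested were mt-Tv (1 to 10 counts per library), mt-Td (5 to 13) and mt-Tr (2 to 14).

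Across the 22 tRNAs, the groups did not overlap for 11, the untested mt-Tv among them, against 41.4% of all genes tested. The median of the tested tRNAs stayed between -0.69 and -0.50 under the 16 alternatives. Of 215 tested small nucleolar RNA genes of the nucleus, edgeR called 95 lower (44.2%) and 1 higher, with a median of -0.68. All listed genes of that type took 0.577 ± 0.0922% of all counts in WT against 0.350 ± 0.0323% in Srrm2+/- (± SD over n = 3 libraries per group). The 60 tested nuclear genes of at most 75 bases had a median of -0.0694, with 6 called lower (10%) and 4 higher. These 60 genes together took 0.0517 ± 0.00578% in WT against 0.0983 ± 0.0123% of all counts in Srrm2+/- (± SD over n = 3 libraries per group). Of 230 microRNA genes 2 were called lower (0.87%) and 7 higher. Among all genes tested, 11.7% were called lower and 13.6% higher. Whether a step of library preparation that acts on short RNA had a part in the tRNA values was not tested.

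To set these values beside the genes that act on mitochondrial DNA and RNA, lists of nuclear genes were counted in the same fit. Of 114 listed genes for transcription, DNA maintenance, RNA processing, RNA modification, aminoacylation, translation and biogenesis, 112 were tested. 7 were called higher (6.25%, against 13.6% of all genes) and 10 lower (8.93%, against 11.7%), with a median log2 fold change of -0.0243. Among the 9 genes of transcription, the polymerase gene Polrmt was at 21.5 ± 0.761 CPM in WT against 20.6 ± 0.402 CPM in Srrm2+/- (log2 fold change -0.0641, SE 0.05). The packaging and initiation factor Tfam (-0.0545, SE 0.04) and the initiation factor Tfb2m (-0.0543, SE 0.05) did not pass the threshold either. Tefm, the elongation factor of the polymerase, was the single member called, and fell from 39.2 ± 1.05 to 33.8 ± 1.75 CPM (± SD over n = 3 libraries per group; log2 fold change -0.21, edgeR adjusted p 0.0158, SE 0.05).

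In the RNA processing list, 2 of 23 genes were called, both lower. They were Grsf1, which encodes an RNA granule protein known to bind light-strand transcripts, at -0.24 (edgeR adjusted p 0.00616, SE 0.05), and Fastkd1 at -0.23 (edgeR adjusted p 0.0337, SE 0.07). Lrpprc (0.0145, SE 0.04) and Slirp (-0.0493, SE 0.05), whose products together stabilise mitochondrial mRNAs, did not pass the threshold. In the DNA maintenance list, 3 of 14 tested genes were called higher, which were Polg, the replicative polymerase (0.20, SE 0.05), Dguok, a kinase that supplies nucleotides (0.28, SE 0.05), and Slc25a4, an ADP/ATP carrier (0.15, SE 0.04). The nuclease gene Mgme1 was lower (-0.19, SE 0.04), and the helicase gene Twnk was at 0.0884 (edgeR adjusted p 0.197, SE 0.05).

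Among 22 genes for aminoacyl-tRNA synthesis, Lars2 (0.28, SE 0.08) and Iars2 (0.14, SE 0.04) were called higher and Cars2 (-0.28, SE 0.06), Qrsl1 (-0.22, SE 0.05) and Mars2 (-0.19, SE 0.05) lower. Cars2 and Mars2 charge the cysteine and methionine tRNAs, and Qrsl1 is a subunit of the enzyme that completes glutaminyl-tRNA in the organelle. Of 19 modification genes Mrm1, an rRNA methyltransferase, was called (-0.26, SE 0.07), and of 16 translation factors Tufm, the elongation factor Tu (0.16, SE 0.04). Of 9 tested biogenesis regulators, Myc was called higher (1.49, SE 0.13) and Esrrb (-0.38, SE 0.06) and Gabpa (-0.19, SE 0.04) lower. Esrrb and Myc are also regulators of pluripotent cells.

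Called differences among nuclear-encoded subunits of the same complexes were mostly small, with that of Cox6b2 the largest. Of 73 subunits tested, 4 were called higher (5.48%) and 9 lower (12.3%), against 13.6% and 11.7% of all genes, with a median of -0.0733. In complex I, 0 of 36 were higher and 3 lower, Ndufb4 (-0.38, SE 0.06), Ndufb5 (-0.19, SE 0.04) and Ndufv1 (-0.12, SE 0.04). In complex III, Uqcrh (0.26, SE 0.05) and Uqcr11 (0.18, SE 0.06) were higher and Uqcr10 (-0.22, SE 0.04) and Uqcrc2 (-0.12, SE 0.04) lower among 9. In complex IV, Cox6b2, an isoform known from testis, fell from 15.6 ± 1.08 to 9.17 ± 0.417 CPM (± SD over n = 3 libraries per group; log2 fold change -0.77, edgeR adjusted p 0.000119, SE 0.07). Cox5a was lower (-0.22, SE 0.05) and Cox7c higher (0.20, SE 0.05) among the 12 of that complex. In complex V, Atp5l was higher (0.17, SE 0.04) and Atp5g1 (-0.21, SE 0.04) and Atp5h (-0.15, SE 0.04) lower among 16.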

How the data were processed

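Total RNA from 3 WT and 3 Srrm2+/- libraries was extracted with TRIzol, treated with TURBO DNase and prepared with a stranded total RNA kit for paired-end reads of 75 bases. The authors deposited estimated counts per gene, made with Kallisto 0.46.1 on GENCODE M24 transcripts (mm10, the GRCm38 assembly). These were rounded to whole numbers here. Of 42450 genes listed, 42156 matched GENCODE M21, which supplied positions and sequences. Samples were grouped by their titles.

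Genes were tested with edgeR 4.0.16 (quasi-likelihood test, TMM, filterByExpr with a minimum count of 10, genotype as the only term) in R 4.3.3, with Benjamini-Hochberg adjustment over 18905 genes and a call at an adjusted p under 0.05. Shares and ratios per library were compared by two-sided exact permutation tests (scipy 1.17.1), which cannot go below 0.1. Nuclear copies were found by shared words of 31 bases, and copies with at least 20% of a gene's words and counts in the table were added as an alternative. Other alternatives were DESeq2 1.42.0, limma 3.58.1 voom, other scalings and filters, the replicate number as a block and leaving out each library.

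Named genes were all mitochondrial genes, Srrm2, 8 core nuclear genes of mitochondrial expression, nuclear copies with counts and the most changed called members of each list, at most 3 per direction. The members and lists were chosen with earlier results of these data known. Same-numbered libraries deviated with correlations of -0.0337 to -0.0285, so the numbers were not treated as pairs. No libraries were duplicates (chi-square per degree of freedom 14.7 to 27.5 within groups). Replicates are frozen batches of 1 line each, so p-values measure the spread between batches. On simulated counts of this comparison over 18905 genes, 65% of 100 genes changed 2-fold and 41% of 100 changed 1.5-fold were recovered. Unchanged genes made up 7.02% of the simulated calls. The real fit called 4781 genes, and the adjusted p depends on how many genes change, so these rates may not hold for it.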

Additional observations from a re-analysis of the deposited data

How the results depend on the processing

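The fall of mt-Nd6 and mt-Ts1 was called under all 16 alternative fits, and that of mt-Tq under the 15 that tested it. The count of mitochondrial genes called higher, 1 (mt-Co2, an mRNA), became 0 with scaling on nuclear protein coding genes, limma voom, nuclear copies added, a limit of 1 on the absolute log2 fold change or an adjusted p under 0.01, and was 0 to 1 without 1 library. The count called lower, 4, became 7 with DESeq2 and 1 with that limit, and was 3 to 5 without 1 library. For tRNAs alone, 3 became 5, 1 and 2 to 4. Without 1 library, the expression lists gave 3 to 5 higher and 4 to 10 lower, and the nuclear subunits 1 to 5 higher and 7 to 11 lower. A filter of 1 CPM in every library of a group gave 7 nuclear subunits higher. With the replicate block, 0 mitochondrial genes and 4 expression list genes were called higher, and mt-Co2 was at 0.30 (adjusted p 0.0629); the numbers were not shown to pair the libraries.

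The difference in the share of all mitochondrial genes, -0.0357 percentage points, ranged from -0.0976 to 0.0335 without 1 library and turned without WT replicate 3 (0.0335) and Srrm2+/- replicate 2 (0.00357). Signs also turned without 1 library for 8 genes near 0, whose log2 fold changes ranged from -0.11 to 0.26 for mt-Rnr1, -0.0869 to 0.0298 for mt-Ty, -0.16 to 0.0243 for mt-Atp8, -0.0354 to 0.0890 for mt-Atp6, -0.13 to 0.0795 for mt-Co3 (0.0420 with nuclear copies added), -0.16 to 0.0118 for mt-Nd4l, -0.0798 to 0.0245 for mt-Nd4 and -0.0629 to 0.0684 for mt-Cytb. The cause was not tested. Depth limits the tRNAs most, since 3 had too few counts to test.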
